A study of Rattus norvegicus with 2 samples.

Results

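Muscle and liver restricted miRNAs are guide strands known for high levels in tissues other than brain, and they were examined here in the nucleus accumbens (NAc), a region of the ventral striatum that takes part in reward. The 7 members, of 349 rat miRNA probes on the array, were chosen by probe name, and passenger strands, whose names end in an asterisk, were left out. rno-miR-1, rno-miR-133a, rno-miR-133b and rno-miR-206 are known from muscle, where they act in the growth and differentiation of muscle cells. rno-miR-208 and rno-miR-499 are known from the heart and slow muscle and are linked to myosin genes. rno-miR-122 is the most abundant miRNA of hepatocytes, where it acts in lipid metabolism. The prefix rno, for rat, is left out below. A miRNA finds its target mRNAs mainly through its seed, bases 2 to 8, so members with a shared seed can pair with the same sites.

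The RNA came from male Sprague-Dawley rats that weighed 150 to 180 g at the start and were kept in separate cages. They were injected intraperitoneally, 2 times a day, with 500 µl saline (vehicle) or with alcohol at 1 g/kg. The NAc, core and shell, was taken after 7 days. The study had 18 rats, and its text ties the array values to 9 rats in each group. Here 1 array was analysed for each treatment, and whether it held RNA pooled from those rats is not given in the sources used here. The arrays had 1 colour (Cy3), and the brightness of a spot follows the miRNA bound to its probe. With 1 array per group there was no test and no replicate check, treatment and array cannot be told apart, and each SD below is over the 9 repeat spots of a probe on an array, which is technical error. In tissue RNA, fewer cells of a type and less RNA per cell cannot be told apart.

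The question asked first was which members gave any signal in the NAc. The measure was the raw density, the mean pixel brightness of a spot in scanner units, set against the mismatched controls, 22 probes that by their names carry mismatches, with 88 spots on each array. A miRNA was called detected on an array when 5 or more of its 9 spots lay above a threshold, the median of these 88 mismatched spots plus 3 median absolute deviations (scaled to match an SD). The threshold was 278 on the vehicle array, over a mismatched median of 241, and 179 on the alcohol array, over a median of 145. On the vehicle array 2 of the 7 members, miR-122 and miR-133a, were detected, against 43.3% of all 349 miRNAs. On the alcohol array 1 of the 7, miR-122, was detected, against 56.2% of all 349. The other 5 members, miR-1, miR-133b, miR-206, miR-208 and miR-499, were detected on neither array. With the mean plus 3 SD of the empty spots as the threshold, all 7 were called on the vehicle array, where that threshold called 99.7% of all 349 miRNAs, and miR-122 alone on the alcohol array, where it called 52.7%. The mismatched median of the vehicle array itself lay above the mean of its empty spots, 202. For the 5, the arrays give no level by the mismatched rule, only that their signal was not above the threshold.

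miR-122 was the member that stood clear of background. Its 9 spots on the vehicle array had densities from 554 to 692, with a median of 602 and a mean of 611 ± 49.9 (SD over 9 spots). On the alcohol array the 9 spots lay between 260.0 and 312, with a median of 288 and a mean of 286 ± 15.2 (SD over 9 spots). Every spot passed the threshold on both arrays, and the brightest alcohol spot was dimmer than the dimmest vehicle spot. At each of the 9 positions the alcohol spot was the dimmer, at 41.6% to 52.9% of the vehicle spot. The mean on the vehicle array exceeded that of all 22 mismatched probes. On the alcohol array it exceeded 20 of the 22, and the 2 above it were Ctr09-3M05 at 597 and Ctr09-3M10 at 2749, which read 272 and 304 on the vehicle array. These 2 probes raise the 95th percentile of the mismatched spots to 697, and miR-122 was not detected on the alcohol array with that percentile as the threshold. What RNA, if any, was added for the Ctr09 controls is not given in the sources used here, so whether 697 is a background level is unknown. The next brightest mismatched probe on the alcohol array was Ctr07-3M05 at 178, and the dimmest was Ctr02-3M05 at 136. On the vehicle array the dimmest was Ctr06-3M10 at 232. In brightness miR-122 ranked 91 of 349 for vehicle and 151 of 349 for alcohol, a rank that depends on each probe as well and is no measure of numbers of molecules.

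The level of miR-122 above background also differed between the arrays. Over the mismatched median it had 370.0 units for vehicle and 141 for alcohol, so that 38.1% of the vehicle excess was left. Measured over the median of the 519 empty spots, the excess was 409 and 144 units, and 35.3% was left. The arrays themselves differed in brightness, and the difference ran opposite ways for background and for detected miRNAs. The mismatched median of the alcohol array was 60.1% of that of the vehicle array, whereas the 150 miRNAs detected on both arrays had a median of 130% in raw density. miR-122 was at 46.8% in raw density, the lowest of these 150.

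After background correction with normexp and cyclic loess between the arrays, which equalizes brightness along the range of signals, miR-122 had normalized signals of 685 for vehicle and 153 for alcohol. The log2 ratio of alcohol over vehicle was -2.16 ± 0.12 (SD over 9 spots), which is 22.4% of vehicle or 4.46-fold lower. The loess was run on probe means, so each SD of a log2 ratio here is that of the spot differences before loess. A miRNA was counted as lower or higher when 1 or both arrays detected it, the brighter of its normalized signals reached 400, and the signals differed 1.3-fold or more. By this rule 1 of the 7 members, miR-122, was lower, against 7.45% of all 349 miRNAs, and 0 of the 7 were higher, against 9.46%. The shares of all miRNAs follow the normalization, with 26 lower and 33 higher under cyclic loess, 8 lower and 85 higher in unnormalized signals, and 79 lower and 17 higher after median scaling. miR-122 was counted as lower in each of these settings. With no signal minimum the rule also took in miR-133a, and 11.2% of all 349 miRNAs were lower and 10.3% higher. The alcohol signal of miR-133a was not above the threshold, so this count is not read as a difference in that miRNA. The ratio of miR-122 was the lowest among the 150 miRNAs detected on both arrays, and the next was miR-134 at -1.44. It kept its sign and passed 1.3-fold in each of 14 other settings, between -3.11 with the mismatched baseline subtracted and -0.85 with scaling to 5S rRNA. Relative to the median log2 ratio of those 150 miRNAs, miR-122 stood at -2.09, and at -1.72 without normalization. Every constant scaling also gives -1.72, because a constant cancels in this difference. Over the 14 other settings the difference lay between -3.02 with the mismatched baseline subtracted and -1.60 without background correction.

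**Figure D1:**
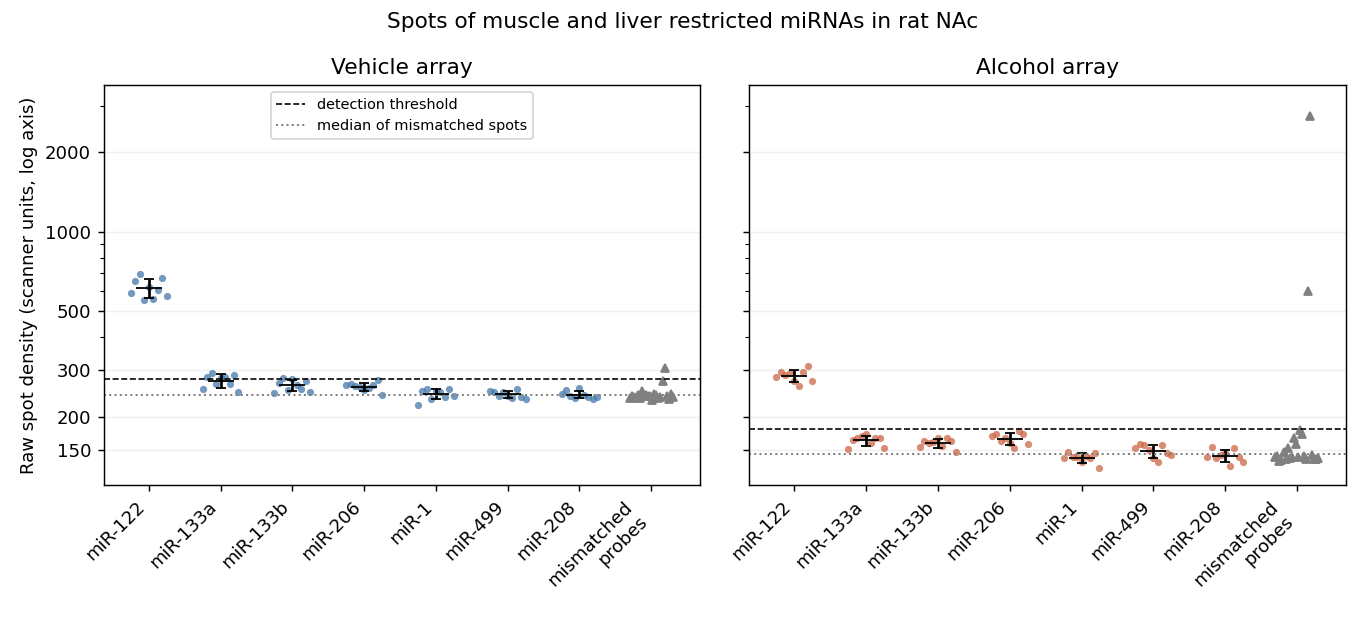
Raw density of each of the 9 repeat spots (dots, log axis, scanner units) of the 7 members on the vehicle array (left) and the alcohol array (right), with mean and SD over spots in black, and the means of the 22 mismatched control probes as grey triangles. All spots of miR-122 lie above the dashed detection threshold (278 and 179), and the other members lie around it or around the dotted mismatched median.

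miR-133a was at the threshold. On the vehicle array its spots ranged from 247 to 292, with a median of 279.5 and a mean of 273 ± 15.6, and 5 of 9 passed. On the alcohol array the range was 150.3 to 171, the median 165 and the mean 162 ± 7.12, and 0 of 9 passed. Its mean exceeded the mismatched median by 32.0 units, or 13.3%, for vehicle and by 17.5 units, or 12.1%, for alcohol. It was brighter than 20 of the 20 mismatched probes without the Ctr09 pair for vehicle and than 17 of the 20 for alcohol. Of the spots of miR-133a, 3 of 3 passed on the vehicle array in column 13, 2 of 3 in column 23 and 0 of 3 in column 3. Spots of other undetected miRNAs in those columns had median densities of 254, 242 and 235. After the background of the nearest 20 empty spots had been subtracted, miR-133a was still detected on the vehicle array, and with a threshold of 5 median absolute deviations it was not. Its normalized signals were 137 for vehicle and 101 for alcohol, and the latter is not a measured level, so no fold is given for it. On the vehicle array 5 undetected miRNAs had a higher mean density than miR-133a, so its vehicle signal is itself near the limit of detection.

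The means of miR-133b and miR-206 lay between the mismatched median and the threshold on both arrays. miR-133b averaged 263 ± 13.4 on the vehicle array, with 2 of 9 spots passing, and 159 ± 6.34 on the alcohol array, with 0 passing. miR-206 had 260.0 ± 9.08 and 165 ± 8.10, with 0 of 9 passing on each array. On the vehicle array the means of miR-133a, miR-133b and miR-206 all exceeded each of the 20 mismatched probes other than the Ctr09 pair, of which the brightest was Ctr04-3M05 at 249. On the alcohol array each of the 3 exceeded 17 of those 20. So these members were brighter than most mismatched probes without reaching the threshold, apart from miR-133a on the vehicle array.

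miR-1, miR-208 and miR-499 lay within the range of the mismatched probes on both arrays. miR-1 had a density of 243 ± 10.8 for vehicle and 140 ± 5.91 for alcohol. The heart miRNA miR-208 had 242 ± 7.46 and 142 ± 7.42. miR-499 had 243 ± 6.91 and 148 ± 8.16. None of their spots passed on either array. Among the 20 mismatched probes without the Ctr09 pair, 18 were dimmer than miR-1, 14 than miR-208 and 18 than miR-499 on the vehicle array, and 8, 12 and 15 on the alcohol array. The raw densities of the 5 muscle members detected on neither array were, for alcohol, 57.4% to 63.5% of those for vehicle, and that of miR-133a was 59.5%. All 152 miRNAs detected on neither array had a median of 60.6%, and the mismatched median gave 60.1%. No fold is given for a member detected on neither array.

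**Figure D2:**
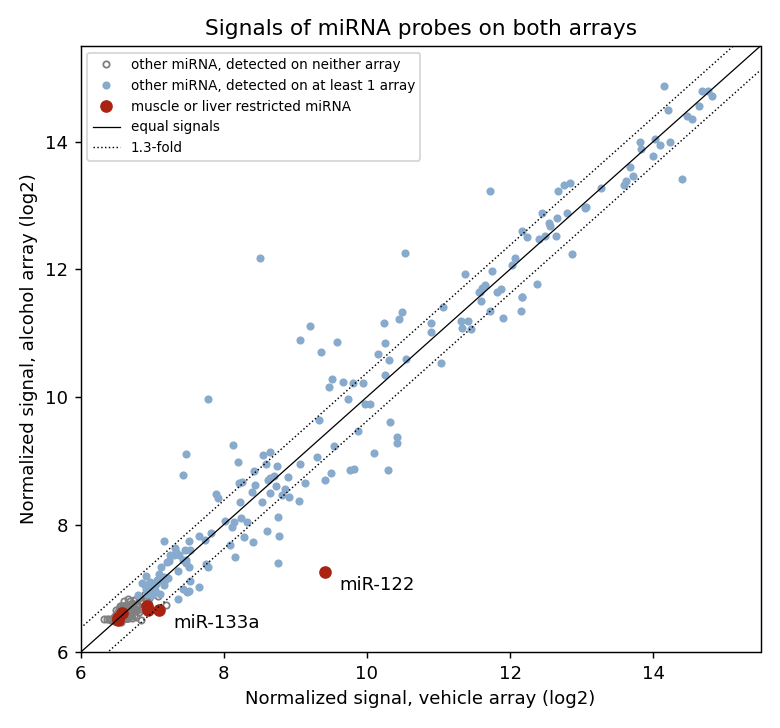
Normalized log2 signal of 349 miRNA probes on the vehicle array (horizontal) and the alcohol array (vertical), with the 7 members in red, other detected miRNAs in blue and other undetected ones as open grey circles. miR-122 lies below the 1.3-fold line with a log2 ratio of -2.16, and the 6 muscle members lie in the cloud of undetected miRNAs or at its edge.

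The mature sequences show how alike the members are. They are the target sequences listed with the probes, printed 5′ to 3′ with the seed in capitals. For 6 of the 7 they equal a mature sequence of RefSeq (rat assembly GRCr8), and the 22-base target of miR-208 begins with the 18 bases of rno-miR-208a-3p there.
miR-122: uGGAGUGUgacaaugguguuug
miR-1: uGGAAUGUaaagaaguguguau
miR-206: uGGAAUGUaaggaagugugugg
miR-133a: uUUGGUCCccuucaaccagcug
miR-133b: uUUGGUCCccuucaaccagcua
miR-208: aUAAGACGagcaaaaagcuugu
miR-499: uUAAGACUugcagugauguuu
miR-1 and miR-206 share the seed GGAAUGU, and miR-133a and miR-133b share UUGGUCC. miR-133a and miR-133b differ at 1 of 22 bases, G22A, where the first letter is the base of miR-133a and positions count from the 5′ end. Their probes cannot be assumed to tell them apart, so their densities may not be independent measurements, which was not tested. miR-1 and miR-206 differ at 3 bases, A11G, A21G and U22G, with the base of miR-1 first. On the vehicle array miR-206 exceeded 20 and miR-1 18 of the 20 mismatched probes without the Ctr09 pair. The seeds of miR-208 and miR-499 differ at 1 base, G8U, and neither was detected on either array. The seed of miR-122 differs from that of miR-1 at 1 base, A5G with the base of miR-1 first, yet the whole sequences differ at 11 of 22 bases.

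No other probe came close to miR-122 in sequence. The best ungapped match had 13 of its 22 bases in common, and was reached by miR-499 and by miR-153. miR-153 had a raw density of 1205 ± 159 for vehicle and 3218 ± 109 for alcohol. Its log2 ratio was 0.77 after normalization, with an SD of 0.21 over the spot differences before loess, and miR-122 was lower on the alcohol array. Whether the miR-122 probe also bound other RNA was not tested. The probes next to miR-122 on the array surface were the neuronal miR-124 with 17820 and 16040 units on the vehicle and alcohol arrays, miR-146b with 396 and 677, miR-10b with 239 and 142, a mismatched control, and empty spots. miR-10b was detected on neither array. For miR-133b the closest probe outside the members was miR-125a-5p, with 13 of 22 bases, and for miR-206 it was miR-185, with 14 of 22. Both were bright on the vehicle and alcohol arrays, miR-125a-5p with 15760 and 15620 units and miR-185 with 3149 and 3918.

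The genomic positions place the members in muscle clusters and myosin genes, apart from miR-122. The GRCr8 positions are those of the matching RefSeq entries, and gene spans do not say whether a position is exonic or intronic. miR-1, at chr18:2160339-2160360, and miR-133a, at chr18:2157886-2157907, lie 2431 bases apart on the minus strand, within the span of Mib1, which encodes a ubiquitin ligase of the Notch pathway. miR-206, at chr9:30590747-30590768, and miR-133b, at chr9:30594629-30594650, lie 3860 bases apart on the plus strand within the span of a long noncoding RNA gene. miR-208, at chr15:32395568-32395585 on the minus strand, lies within Myh6, a cardiac myosin heavy chain, and miR-499, at chr3:164570616-164570636 on the plus strand, within the myosin gene Myh7b. miR-122 is at chr18:61028831-61028852 on the plus strand, within a transcribed pseudogene. The members of a cluster did not differ in detection on the alcohol array, and on the vehicle array miR-133a was detected with 5 of 9 spots while miR-1 had 0 of 9.

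Other markers show what the tissue gave beside the members. The neuronal list was detected on both arrays in 4 of 4 probes, miR-9, miR-124, miR-128 and miR-138. The oligodendrocyte list, miR-219-5p and miR-338, had 0 of 2 for vehicle and 2 of 2 for alcohol, where the threshold was lower. Outside the list, miR-219-2-3p and miR-338*, by name other arms of miR-219 and miR-338, were detected on both arrays. Their normalized log2 signals were 11.3 and 9.41 for vehicle, and 11.1 and 8.69 for alcohol. miR-219-1-3p was detected on neither array. The 0 of 2 therefore does not show that such miRNAs were absent from the vehicle array. The alcohol mean of miR-338 lay above the vehicle threshold of 278 as well, and that of miR-219-5p did not. miR-338 read 252 ± 8.45 for vehicle, with 0 of 9 spots passing, and 847 ± 109 for alcohol, with 9 of 9. miR-219-5p read 262 ± 14.2 with 1 of 9 and 222 ± 19.2 with 9 of 9. Over the mismatched median, miR-338 had 10.6 units for vehicle and 702 for alcohol, and miR-219-5p 20.7 and 77.6. Neither was above the threshold on the vehicle array, so no ratio is given for them. The muscle list had 1 of 6 and 0 of 6. Its raw densities summed to 1523 for vehicle and 916 for alcohol, and miR-133a on the vehicle array was its only detection. The sums include the background of each probe, which was brighter on the vehicle array, and are not read as tissue content.

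Within the liver list, miR-122 alone reached the signal minimum of 400 and was counted as different between the arrays. The list holds miR-122, miR-192 and miR-194, of which vehicle had 2 of 3 detected and alcohol 3 of 3, with summed raw densities of 1166 and 959. These sums include the background of each probe, which was brighter on the vehicle array. They do not give the order of the signal above background. miR-192, also made in gut and kidney, had 281 ± 10.2 with 6 of 9 spots passing for vehicle and 364 ± 34.0 with 9 of 9 for alcohol. miR-194, which shares its sources, had 274 ± 11.9 with 4 of 9 and 310 ± 24.5 with 9 of 9. Over the mismatched median miR-192 had 39.6 units for vehicle and 219 for alcohol, and miR-194 had 33.2 and 165, both with more on the alcohol array, whereas miR-122 had less there. After normalization the log2 ratio of miR-192 was 0.18, which is smaller than the SD of its 9 spot differences before loess, 0.19. No ratio is given for miR-194, which was not detected on the vehicle array.

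Markers of blood and of other peripheral tissues were mostly at background. Of the blood cell list 1 of 6 was detected on each array, miR-150, with a log2 ratio of 0.07 ± 0.56. The red cell miRNAs miR-451 and miR-144 and the myeloid miR-223, as well as miR-142-3p and miR-142-5p, were detected on neither array, and the density of miR-451 was 246 ± 8.92 and 138 ± 6.93. The raw densities of the blood list summed to 3990 for vehicle and 4696 for alcohol, of which miR-150 alone gave 2766 and 3956. Each of the other blood list members had a lower raw density on the alcohol array, where background was dimmer too, so miR-150 sets the direction of the sums. Over the mismatched median, miR-223 and miR-142-3p had more on the alcohol array, and miR-451, miR-144 and miR-142-5p had less. In the gut and pancreas list 0 of 4 and 1 of 4 were detected, and the latter was miR-375, known from pancreatic islets, with 7 of 9 spots. miR-215, miR-216a and miR-217 were detected on neither array. The summed density of this list was 1000.1 and 636. The epithelial list had 0 of 7 on both arrays, with sums of 1746 and 1044. The sensory list, miR-96, miR-182 and miR-183, had 0 of 3, with sums of 745 and 449. All these sums include the background of each probe, which was dimmer on the alcohol array, and are not read as tissue content. The part of blood or other tissue in the signal of miR-122 was not tested beyond these values.

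The miRNAs with the pattern nearest to miR-122 lay at some distance. By Euclidean distance between normalized log2 signals on the 2 arrays, miR-877 came first, at 0.68, with a log2 ratio of -1.35. It was followed by miR-342-5p at a distance of 0.86 and miR-324-3p at 1.04, with log2 ratios of -0.94 and -0.70. For miR-133a they were miR-341 at 0.13, miR-133b at 0.16 and miR-206 at 0.18, each detected on neither array. The alcohol signal of miR-133a is not a measured level either, so these distances place it near undetected probes and show no shared pattern.

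**Figure D3:**
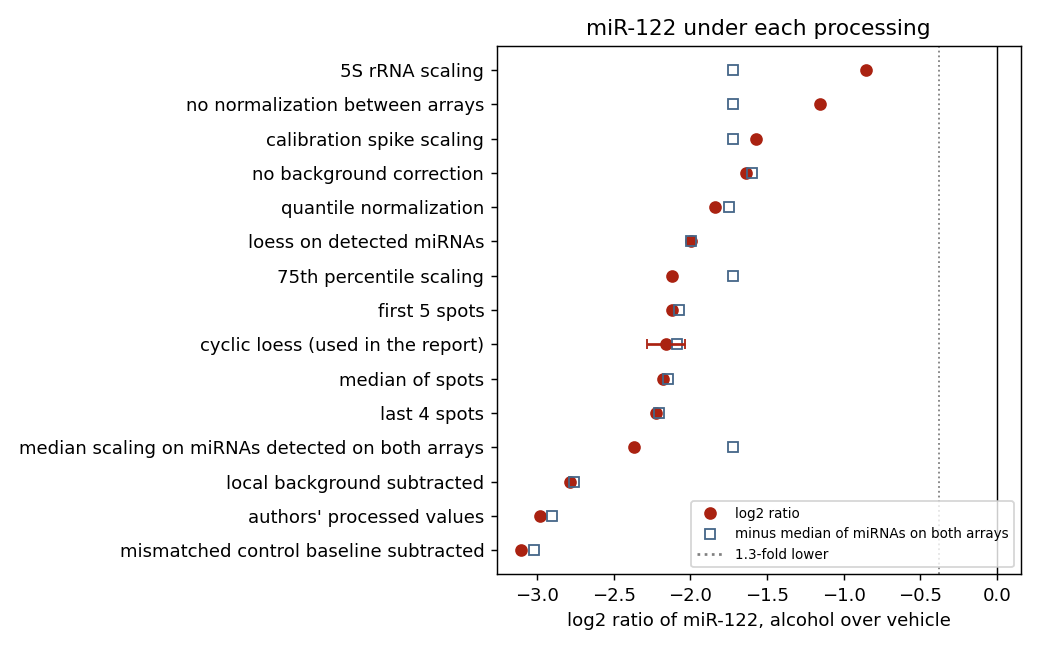
log2 ratio of miR-122, alcohol over vehicle, under each of 15 ways to process the arrays (dots). Open squares give the same value minus the median over the 150 miRNAs that both arrays detected. The bar at the cyclic loess is the SD over 9 spots of the log2 difference before loess. All values lie left of the dotted line at 1.3-fold, between -3.11 and -0.85.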

How the data were processed

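The authors deposited the spot intensity of each array, the mean pixel density without background subtraction, with its SD over pixels, and a processed signal for each probe, made by background subtraction, averaging of spots and a cyclic normalization, whose tool is not given in the sources used here. Groups follow the labels, with 1 array each. The processed signal is on a linear scale and was used as an alternative.

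Densities were corrected with normexp (offset 50, fitted on the foreground) in limma 3.58.1 under R 4.3.3, averaged over spots as log2 values and normalized with cyclic loess (span 0.7, 3 iterations) over 349 miRNA probes. Other steps used Python 3.11.15. No p-value was computed. The steps were tested on simulated data. The changed probes there were all brighter over background than any member on the vehicle array, so the simulation does not cover the signals of the members. Precision is limited by the number of arrays.

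The members and lists were chosen with earlier results of these data known. Named miRNAs are the members, the 3 probes nearest in signal to each detected member, the extreme mismatched probes, the nearest probes by sequence, and marker lists (muscle, liver, blood cells, gut and pancreas, epithelium, sensory, neurons, oligodendrocytes). Of 40 listed names 35 were found on the array. Ctr09-3M05, the second brightest mismatched probe, miR-134 and the probes beside miR-122 were named after their values were seen. Alternatives covered detection thresholds, normalization, background, spots and fold. A pair of detection rules was chosen after seeing the data. Other assays of the study were not analysed here.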

Additional observations from a re-analysis of the deposited data

How the results depend on the processing

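No paired analysis was possible because a single array stands for each group. The 2 members detected on the vehicle array were 7 with the empty-spot threshold, and 1 with 5 median absolute deviations, with every spot required, or above the highest mismatched probe mean. Without the Ctr09 pair, a choice made after seeing the data, the last rule gave 4, miR-122, miR-133a, miR-133b and miR-206. The 1 member on the alcohol array became 0 with the 95th percentile of the mismatched spots or their highest probe mean, in which the Ctr09 pair is included. Local background, also chosen after seeing the data, kept 2 and 1. The share of all 349 miRNAs was counted only for the main and empty-spot thresholds, at 43.3% and 99.7% for vehicle. For alcohol these shares were 56.2% and 52.7%. Counts of members under the other detection rules therefore cannot be read against the array as a whole.

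The log2 ratio of miR-122, -2.16, was -1.15 unnormalized, -2.37 after median scaling, -1.84 after quantile normalization, -0.85 when scaled to 5S rRNA, -1.57 when scaled to spikes, -2.00 when the loess used detected miRNAs, -1.64 if background was not corrected, -3.11 with the mismatched baseline, -2.79 with local background and -2.98 in the authors' processed values. The median of all 349 was -0.22 unnormalized, -1.18 after scaling to the 75th percentile, -1.43 after median scaling, -0.63 when scaled to spikes and -0.24 when the loess used detected miRNAs.

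The alcohol signal of miR-133a was not above background, so its log2 differences between the arrays are no fold of that miRNA and hold no evidence of a change. They were -0.43 after cyclic loess, -0.64 unnormalized, -1.85 after median scaling, -0.69 after quantile normalization, -1.60 after scaling to the 75th percentile, -1.06 when scaled to spikes, -0.60 when the loess used detected miRNAs, -0.23 if background was not corrected, -2.62 with the mismatched baseline, -1.18 with local background, -0.34 when scaled to 5S rRNA and -1.80 in the authors' processed values. The count past 1.3-fold, 1, was 2 with no signal filter, which takes in miR-133a against that undetected signal, and where 39 of all 349 were lower and 36 higher. The rank of miR-122 on the vehicle array, 91, was 86 in the authors' values. For all of these the cause was not tested. Signal over background limits every member. The ratio of miR-122 moved with background handling and with normalization between the arrays.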

Other observations

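The passenger strand miR-1* read 249 ± 11.0 for vehicle and 153 ± 9.19 for alcohol (raw density, SD over 9 spots), with 0 spots above the threshold on either array. In the authors' processed signal, on the vehicle and alcohol arrays, miR-122 was at 687 and 86.9, miR-133a at 71.4 and 20.5, miR-133b at 50.3 and 18.4, and miR-206 at 39.0 and 23.3. miR-1 was at 10.7 and 5.53 there, miR-208 at 9.13 and 6.49, and miR-499 at 8.99 and 15.4.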
